A study of Homo sapiens with 10 samples.

Results

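A transfer RNA synthetase joins one amino acid to its tRNA, and ATF4 is the transcription factor that cells translate when the eIF2 kinases sense amino acid shortage or unfolded protein. ATF4 then switches on genes that make, import and load amino acids, many of the cytosolic synthetases among them, together with its partners and feedback regulators. Dividing B cells draw on this supply of amino acids and one-carbon units for protein and nucleotide synthesis. The account below follows 40 genes of this system, taken by symbol: 21 synthetase genes, 4 regulators, 4 stress outputs, 6 enzymes and 5 transporters. All 40 are among the 25275 symbols of each table.

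The study depleted STAT3, a transcription factor of cytokine signalling, in OCI-LY10 and TMD8, established human lines of diffuse large B-cell lymphoma of the ABC type. In OCI-LY10, RNA-seq covered 1 library with STAT3 shRNA 10, 1 with STAT3 shRNA 16 and 1 labelled as transduced with control shRNA. All of them, the control included, had 20 ng/ml doxycycline for 2 days to induce the shRNA. The 3 TMD8 RNA-seq samples had the same 3 kinds of shRNA and the same induction, but the 3 value columns of their table bear no names. TMD8 values are therefore given by position, as value columns 1, 2 and 3, with no shRNA assigned to any of them. The 4 STAT3 ChIP-seq samples, taken after 4 h of the JAK inhibitor AZD1480 or its solvent DMSO, were not analysed here. Levels are FPKM, fragments scaled to gene length and library size, so genes can be compared with each other.

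The library labelled control stood apart from both STAT3 shRNA libraries and close to TMD8, and every comparison with it has to be read beside that. Whether it came from the line on its label was not tested, and in a comparison with it a change with STAT3 shRNA and a difference between cell lines cannot be told apart. With small RNA genes left out, log2(FPKM + 1) of 11002 genes correlated at a Pearson's r of 0.994 between the STAT3 shRNA libraries. It was 0.845 between either of them and the library labelled control, and 0.937, 0.940 and 0.961 between that library and TMD8 value columns 1, 2 and 3. These are descriptions across genes, within or between separately made tables, and no p is given. STAT3 itself stood at 11.1 FPKM in the shRNA 10 library and 10.6 in the shRNA 16 library, against 16.5 in the library labelled control. Its log2 change was -0.56 (SE 0.10, limma adjusted p = 0.0465), with adjusted p between 0.0294 and 0.0688 under other settings. In TMD8, STAT3 was at 120.3, 24.3 and 22.5 FPKM in value columns 1, 2 and 3. All 7 B-cell markers were at 1 FPKM or more in each of the 6 libraries, and no T or NK cell or myeloid marker was. Of 5 epithelial and fibroblast markers, 1 or 2 reached 1 FPKM in each library. EPCAM was at 4.39 FPKM with either STAT3 shRNA and listed at 0 in the library labelled control and in TMD8, and COL1A1 was at no more than 0.00823 FPKM with the shRNAs, against 3.597 in the library labelled control. The B-cell markers summed to 2386 and 2642 FPKM with shRNA 10 and 16, against 838 in the library labelled control, and to between 802 and 958 in TMD8. CD79A and CD79B made up most of these sums, and CD22 went the other way, at 23.0 and 29.3 FPKM with shRNA 10 and 16, against 62.1 in the library labelled control. The part of these differences in the results below was not tested. Estimated depth was 0.73 times that of shRNA 10 with shRNA 16 and 1.52 times in the library labelled control. In TMD8 it was 0.964 and 0.986 times that of column 1 in columns 2 and 3. Small RNA genes held 57.8% and 58.2% of summed FPKM with shRNA 10 and 16, and 49.0% in the library labelled control. In TMD8 they held 22.8%, 28.9% and 43.4% in value columns 1, 2 and 3. The part of these shares in the values below was not tested. In such bulk samples, fewer cells of a type and less RNA per cell cannot be told apart.

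Promoter sequences show what part of the 40 genes has in common at the DNA level. ATF4 binds with C/EBP partners to a composite element, and the motif TGATGNAA, its core, was searched on both strands of RefSeq promoter windows of GRCh38.p14. A window runs from 250 bases before to 50 after an annotated start. Windows were found for 32 of the 40 genes, and 11 of these (34.4%) held the motif, against 4.46% of 27305 genes with a window. Of the 11, 7 are synthetase genes (AARS, CARS, GARS, IARS, MARS, NARS and TARS, of 16 with a window) and 4 are CHAC1, ASNS, SLC3A2 and SLC1A5. The narrower TTGCATCA, the reverse complement of one form of TGATGNAA, was present in 8 of the 32 and in 1.08% of genes. A match is a run of letters and not a binding site. The 40 genes were listed around ATF4 and its targets, so a difference in motif share is not independent of that choice. The 27305 genes were not limited to expressed ones. The windows of the 6 genes below were chosen because they hold the motif and had the largest changes between the OCI-LY10 libraries. Each is written in the direction of transcription, with the motif in capitals.

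CARS, cysteinyl-tRNA synthetase, chr11:3057374-3057673, minus strand: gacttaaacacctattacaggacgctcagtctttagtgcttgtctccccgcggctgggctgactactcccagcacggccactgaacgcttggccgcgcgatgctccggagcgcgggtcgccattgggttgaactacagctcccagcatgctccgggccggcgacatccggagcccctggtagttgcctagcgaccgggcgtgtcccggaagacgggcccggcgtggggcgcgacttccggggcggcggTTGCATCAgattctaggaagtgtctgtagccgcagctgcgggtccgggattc
AARS, alanyl-tRNA synthetase, chr16:70289457-70289756, minus strand: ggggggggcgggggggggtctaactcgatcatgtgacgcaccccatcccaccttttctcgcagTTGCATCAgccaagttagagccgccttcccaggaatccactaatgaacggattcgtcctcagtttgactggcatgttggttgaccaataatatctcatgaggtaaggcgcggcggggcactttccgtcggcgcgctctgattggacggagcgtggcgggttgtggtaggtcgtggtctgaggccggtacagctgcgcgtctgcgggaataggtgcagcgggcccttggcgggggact
ASNS, asparagine synthetase, chr7:97872359-97872658, minus strand: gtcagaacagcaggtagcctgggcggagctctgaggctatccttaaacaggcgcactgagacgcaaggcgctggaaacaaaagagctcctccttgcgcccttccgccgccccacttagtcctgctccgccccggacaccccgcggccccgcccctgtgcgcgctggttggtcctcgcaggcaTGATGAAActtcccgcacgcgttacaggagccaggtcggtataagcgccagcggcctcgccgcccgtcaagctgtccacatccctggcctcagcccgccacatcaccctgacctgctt
NARS, asparaginyl-tRNA synthetase, chr18:57621787-57622086, minus strand: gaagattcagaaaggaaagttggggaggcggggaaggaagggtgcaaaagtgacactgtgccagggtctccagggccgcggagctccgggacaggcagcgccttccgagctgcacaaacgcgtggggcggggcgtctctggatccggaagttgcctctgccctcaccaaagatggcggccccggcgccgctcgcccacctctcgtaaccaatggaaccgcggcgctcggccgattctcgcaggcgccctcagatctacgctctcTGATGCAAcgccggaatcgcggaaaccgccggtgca
CHAC1, a glutathione-degrading enzyme, chr15:40953221-40953520, plus strand: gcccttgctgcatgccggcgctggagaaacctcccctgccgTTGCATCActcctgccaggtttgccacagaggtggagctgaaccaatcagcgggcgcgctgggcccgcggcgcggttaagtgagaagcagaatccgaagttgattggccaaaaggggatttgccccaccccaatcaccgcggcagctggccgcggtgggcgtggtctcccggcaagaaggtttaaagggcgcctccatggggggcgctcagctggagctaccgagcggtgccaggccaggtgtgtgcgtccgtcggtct
MARS, methionyl-tRNA synthetase, chr12:57487818-57488117, plus strand: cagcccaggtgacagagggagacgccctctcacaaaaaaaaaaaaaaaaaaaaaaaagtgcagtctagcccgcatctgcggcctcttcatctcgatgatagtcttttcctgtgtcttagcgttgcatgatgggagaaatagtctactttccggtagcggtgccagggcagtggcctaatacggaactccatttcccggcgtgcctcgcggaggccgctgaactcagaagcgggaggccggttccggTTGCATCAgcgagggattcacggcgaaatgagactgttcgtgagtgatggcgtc

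Counting from the annotated start as base 1, the motif began at position -2 in CARS, -4 in MARS and 15 in NARS. It also lay near the start in IARS (-13), TARS (3) and GARS (-33), and farther upstream in ASNS (-68), AARS (-187) and CHAC1 (-209). Genes with the motif did not move as one between the OCI-LY10 libraries. Of the 11, AARS and ASNS were called higher and CARS lower with STAT3 shRNA, and 8 were not called. Over all 11162 tested genes, 20.3% were called higher and 17.4% lower.

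Across all 40 genes, the STAT3 shRNA libraries of OCI-LY10 held both higher and lower genes than the library labelled control. In the limma calls and at 1.5-fold with both shRNAs, the shares were near or below those of genes at large. With shRNA 10 alone, the share of members at least 1.5-fold higher was above that of genes at large. The limma test on log2(FPKM + 1) treats the 2 shRNA libraries as replicates against 1 control library, so its p-values measure only the spread between the 2 shRNAs. Both shRNA libraries are set against that same control library, so their changes are not independent of each other. VARS and SLC7A11 lay under the filter of a mean of 1 FPKM, which left 38 genes tested. AARS, KARS, YARS, AARS2, TRIB3, SESN2, ASNS and PHGDH were called higher, which is 8 of 38, where 20.3% of 11162 tested genes were called higher. CARS, QARS, ATF5 and PPP1R15A were called lower, 4 of 38, where 17.4% of tested genes were called lower. The median log2 change was 0.26 over the 38 genes and 0.06 over all tested genes. The same 8 genes were at least 1.5-fold higher with both shRNAs (20.1% of tested genes were), and 3 of the 4, all but QARS, were at least 1.5-fold lower (17.2% of tested genes were). With shRNA 10 alone 14 of the 38 members were at least 1.5-fold higher than the library labelled control, and with shRNA 16 alone 8 were, where 23.5% of tested genes were with either. At least 1.5-fold lower were 3 members with shRNA 10 alone (20.1% of tested genes were) and 6 with shRNA 16 alone (19.5% of tested genes were).

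**Figure D1:**
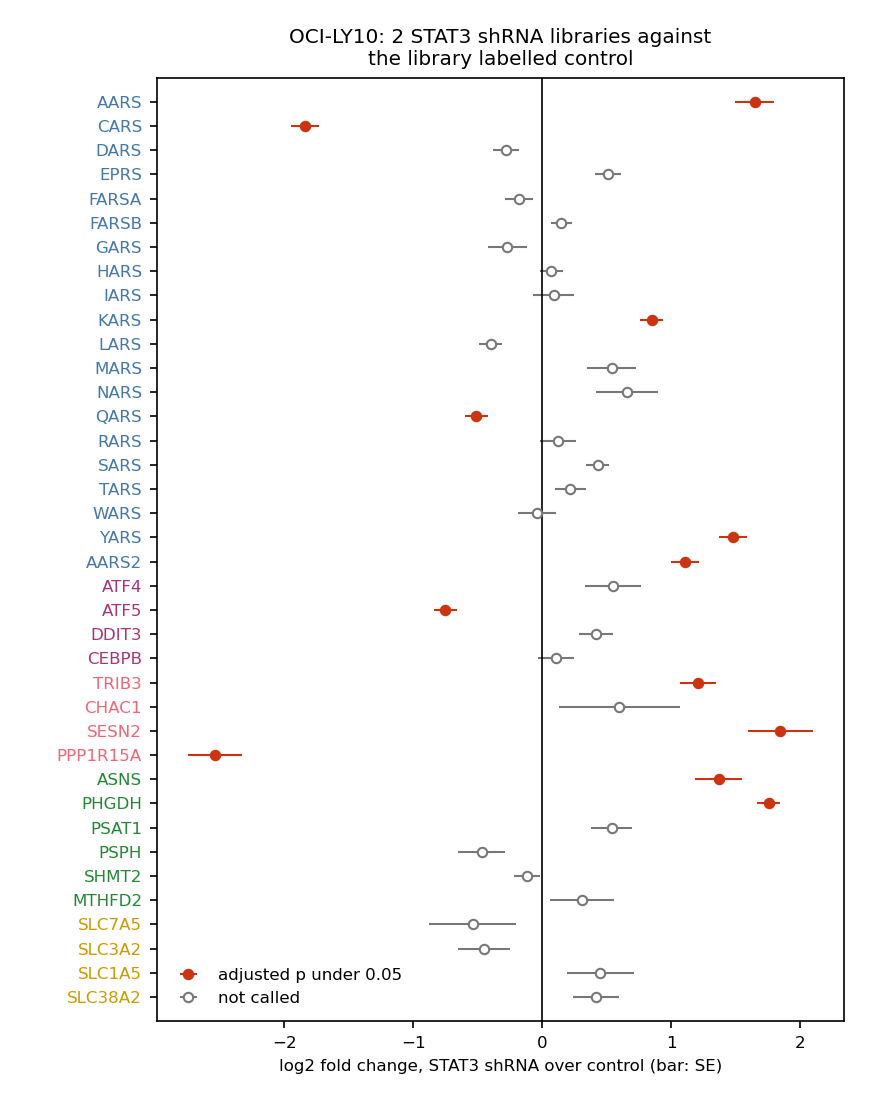
Log2 fold change (x axis, from log2(FPKM + 1)) of the 38 tested genes (rows) in OCI-LY10, the mean of the 2 STAT3 shRNA libraries over the 1 library labelled control, with bars for the limma SE. Filled red points are the 12 genes called at an adjusted p under 0.05, and label colours give the role: blue synthetases, purple regulators, pink stress outputs, green enzymes, ochre transporters. PPP1R15A lies farthest to the left at -2.54 and SESN2 farthest to the right at 1.85.

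The synthetases split in both directions in OCI-LY10, with 4 of 20 tested called higher and 2 lower. Over all tested genes, 20.3% were called higher and 17.4% lower. AARS, which charges tRNA with alanine, reached 210.3 FPKM in the shRNA 10 library and 246 in the shRNA 16 library, against 71.9 FPKM in the library labelled control. Its mean was 228 ± 25.2 FPKM (SD, n = 2), 3.17 times the library labelled control, and its log2 change was 1.65 (SE 0.15, adjusted p = 0.0182). YARS, the tyrosyl enzyme, was at 118 and 107 FPKM with shRNA 10 and 16, against 39.7 (log2 change 1.48, SE 0.11, adjusted p = 0.0156). KARS, the lysyl enzyme of cytosol and mitochondria, was at 328 and 341 FPKM against 185 (log2 change 0.85, SE 0.09, adjusted p = 0.0224). AARS2, which loads alanine in mitochondria, was at 23.8 and 25.6 FPKM against 10.9 (log2 change 1.11, SE 0.11, adjusted p = 0.0199).

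CARS went the other way, at 42.8 FPKM in the shRNA 10 library and 38.6 in the shRNA 16 library, against 148 in the library labelled control. Its mean of 40.7 ± 2.92 FPKM (SD, n = 2) was 27.5% of that library, and its log2 change was -1.84 (SE 0.11, adjusted p = 0.0126). QARS, the glutaminyl enzyme, was at 104 and 109.7 FPKM against 152 (log2 change -0.51, SE 0.09, adjusted p = 0.0465). QARS was no longer called when genes of low level were kept in (adjusted p = 0.0712) or with quantile normalization (adjusted p = 0.0535). Among the synthetases that were not called, EPRS, which joins glutamate and proline, had 102 and 94.3 FPKM against 68.8 (adjusted p = 0.0542). SARS, the seryl enzyme, had 134.5 and 138 FPKM against 101 (adjusted p = 0.0518), and LARS, the leucyl enzyme, 37.9 and 36.0 against 49.2 (adjusted p = 0.0660). EPRS, SARS and LARS were called with small RNA genes left out (limma adjusted p = 0.0294, 0.0325 and 0.0458). SARS was also called with a pseudocount of 0.1 FPKM (limma adjusted p = 0.0494), and LARS with quantile normalization (limma adjusted p = 0.0479). The remaining log2 changes ran from -0.28 in DARS to 0.66 in NARS. WARS, a synthetase that interferon is known to induce, had 64.5 and 55.0 FPKM against 61.4 (log2 change -0.04).

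The synthetases were also counted by fold and by complex. Of 11 class II enzymes, which share a catalytic fold, 3 were higher and 0 lower (limma). Of 9 class I enzymes tested, which share another, 1 was higher and 2 lower. Among all tested genes 20.3% were higher and 17.4% lower. The 8 enzymes of the multisynthetase complex (DARS, EPRS, IARS, KARS, LARS, MARS, QARS and RARS) had 1 higher, 1 lower and a median log2 change of 0.11. VARS, the valyl enzyme, was listed at 0 in all 6 libraries, and so was its mitochondrial counterpart VARS2. Both genes lie on chromosome 6, in the region of the major histocompatibility complex. 

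The regulators showed no common rise in OCI-LY10. ATF4 reached 359 FPKM in the shRNA 10 library and 274 in the shRNA 16 library, against 215 in the library labelled control (log2 change 0.55, SE 0.22, adjusted p = 0.162). The 2 shRNA libraries differed from each other by more than shRNA 16 differed from the library labelled control. ATF5, a relative of ATF4 that the same pathway translates, was the most abundant of the 40 genes in every library. It was at 642 and 639.9 FPKM with shRNA 10 and 16, against 1080.3 (log2 change -0.75, SE 0.09, adjusted p = 0.0271). DDIT3, also called CHOP, a pro-death factor downstream of ATF4, was at 13.01 and 14.8 FPKM against 10.2 (adjusted p = 0.112). CEBPB, a C/EBP partner of ATF4, was at 2.94 and 2.44 FPKM against 2.40 (adjusted p = 0.554). ATF4 protein is set largely by translation, which mRNA levels do not measure.

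Of the 4 stress outputs, 2 were called higher and 1 lower, where 20.3% of tested genes were called higher and 17.4% lower. SESN2, a leucine sensor that restrains mTORC1, reached 11.8 FPKM in the shRNA 10 library and 8.47 in the shRNA 16 library, against 2.06 in the library labelled control. Its log2 change was 1.85 (SE 0.25, adjusted p = 0.0303), and 1.09 with a pseudocount of 5 FPKM. TRIB3, a pseudokinase that damps ATF4 activity, was at 23.4 and 20.3 FPKM against 8.84 (log2 change 1.21, SE 0.14, adjusted p = 0.0247). CHAC1 was at 5.94 FPKM with shRNA 10 but 2.80 with shRNA 16, against 2.39, and was not called (log2 change 0.60, SE 0.47, adjusted p = 0.385). PPP1R15A, also called GADD34, the phosphatase subunit that restores eIF2 activity, was at 9.16 and 12.0 FPKM against 66.1. Its mean was 10.6 ± 2.03 FPKM (SD, n = 2), and the log2 change was -2.54 (SE 0.21, adjusted p = 0.0171). With genes of low level kept in, SESN2, TRIB3, PPP1R15A, AARS and ASNS were no longer called, at adjusted p between 0.0521 and 0.0830.

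Of the enzymes, 2 of 6 were called, both higher, where 20.3% of tested genes were called higher and 17.4% lower. PHGDH, the first enzyme of serine synthesis, reached 184 FPKM in the shRNA 10 library and 175 in the shRNA 16 library, against 52.4 in the library labelled control. The mean of 179.5 ± 5.70 FPKM (SD, n = 2) was 3.43 times that library, and its log2 change was 1.76 (SE 0.09, adjusted p = 0.0103). ASNS, which makes asparagine, was at 118 and 95.1 FPKM against 40.3 (log2 change 1.37, SE 0.18, adjusted p = 0.0296). The later enzymes of serine synthesis were not called. PSAT1 had 140.3 and 116 FPKM against 87.7 (adjusted p = 0.102), and PSPH 12.3 and 9.83 FPKM against 15.7 (adjusted p = 0.150). In mitochondrial one-carbon metabolism, SHMT2 had 224 and 209 FPKM against 235 (adjusted p = 0.420). MTHFD2, the next enzyme of that route, had 181 and 132 FPKM against 125 (adjusted p = 0.401).

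None of the 4 transporters tested was called by limma, and none had an unadjusted p under 0.05. Over all tested genes, 20.3% were called higher and 17.4% lower. SLC7A5, which imports large neutral amino acids, had 53.9 and 34.9 FPKM with shRNA 10 and 16, against 63.7 in the library labelled control (log2 change -0.54, SE 0.34, adjusted p = 0.293). Its partner chain SLC3A2 had 55.7 and 43.9 FPKM against 68.0 (adjusted p = 0.181). The glutamine carriers SLC1A5 and SLC38A2 had log2 changes of 0.45 and 0.42 (adjusted p = 0.262 and 0.168). SLC7A11, which exchanges cystine for glutamate, was at 0.344 and 0.232 FPKM against 2.30, and lay under the filter.

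**Figure D2:**
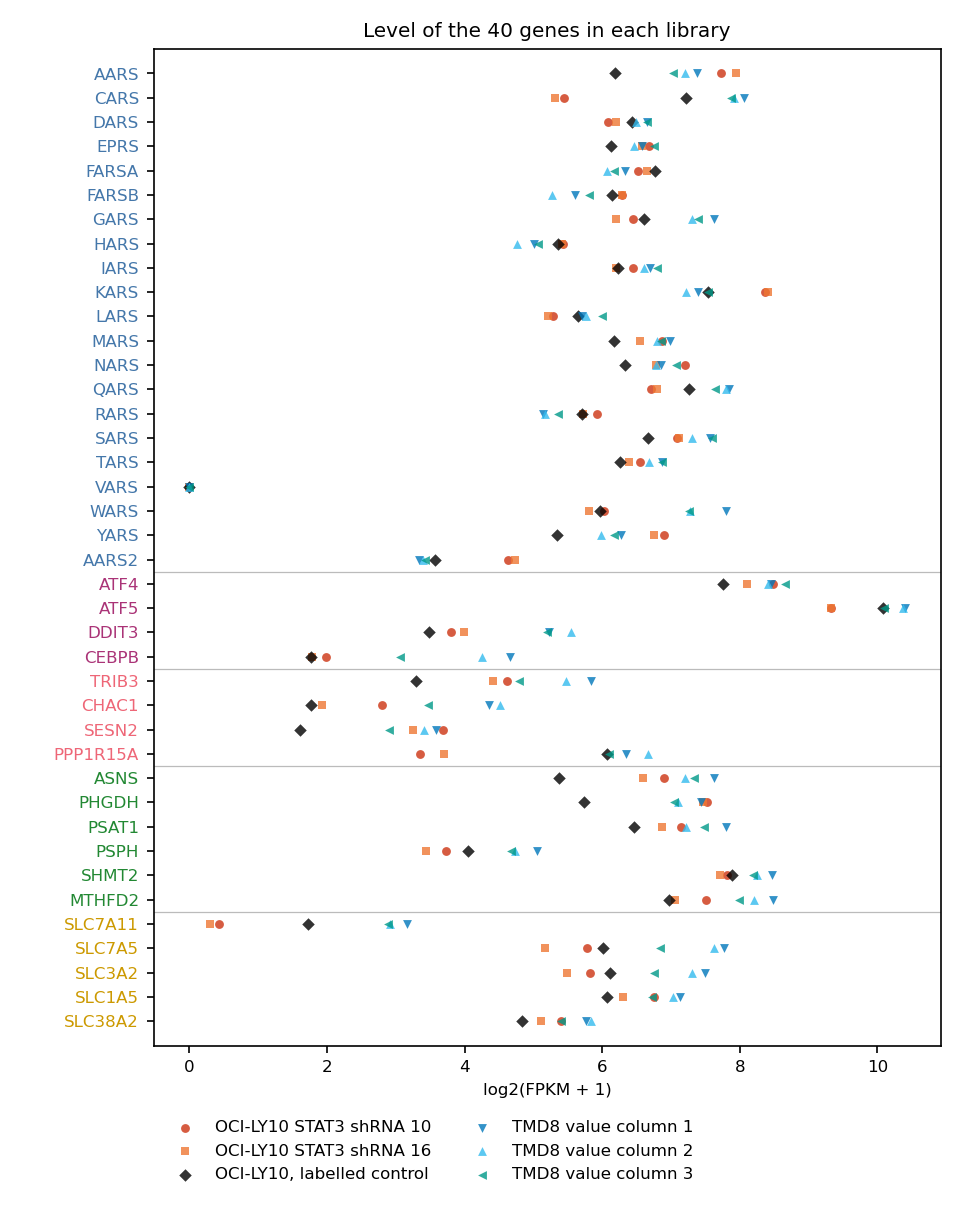
Log2(FPKM + 1) (x axis) of each of the 40 genes (rows, by role from synthetases at the top to transporters at the bottom) in the 6 libraries, 1 point per library. ATF5 is the most abundant gene in every library, VARS is listed at 0 in all 6, and SLC7A11 lies lowest of the others in both STAT3 shRNA libraries.

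Set against TMD8, the library labelled control was low for much of the ATF4 program although it matched TMD8 closely over genes at large. The 2 tables were made separately, so levels across them are a description with no test. Among the 39 genes that averaged 1 FPKM or more over all 6 libraries, 22 (56.4%) were at least 1.5-fold below all 3 TMD8 columns in the library labelled control. That was so for 9.49% of 11340 genes. SLC7A11 reached the mean of 1 FPKM only through its TMD8 values. It counts among the 22 here, and among the 13 and the 10 given below. No member was at least 1.5-fold above all 3 columns in that library, where 6.82% of genes were. In both STAT3 shRNA libraries 13 of the 39 genes were at least 1.5-fold below all 3 TMD8 columns, where 20.9% of genes were, and KARS and AARS2 were at least 1.5-fold above them, where 16.8% of genes were. The median log2 difference from the TMD8 median was -0.44 with shRNA 10, -0.55 with shRNA 16 and -0.71 in the library labelled control. Over all 11340 genes these medians were -0.01, -0.02 and -0.05. At 2-fold, 10 genes remained below all TMD8 columns in the library labelled control, where 2.35% of genes did: WARS, DDIT3, CEBPB, TRIB3, CHAC1, SESN2, ASNS, PHGDH, MTHFD2 and SLC7A11.

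The gap to TMD8 was wider outside the synthetases. In the library labelled control 15 of the 19 other genes were at least 1.5-fold below all TMD8 columns, against 7 of 20 synthetases. Over all 11340 genes the share was 9.49%. SLC7A11 is among the 15. Median log2 differences in that library were -1.19 for the 19 other genes, -0.49 for the synthetases and -0.05 over all 11340 genes. ASNS was at 40.3 FPKM in the library labelled control, against 197, 146 and 161 FPKM in TMD8 value columns 1, 2 and 3. PHGDH was at 52.4 FPKM there, against 172, 137 and 131 FPKM in TMD8. Both genes stood nearer to TMD8 in the STAT3 shRNA libraries, whose values are given above. TRIB3 was at 8.84 FPKM in the library labelled control, against 56.4, 43.6 and 26.8 in TMD8. CHAC1 was at 2.39 FPKM, against 19.4, 21.8 and 10.1, and CEBPB at 2.40 FPKM, against 24.3, 18.2 and 7.39. DDIT3 was at 10.2 FPKM, against 36.6, 46.0 and 35.6. For CEBPB, CHAC1, DDIT3, TRIB3 and ASNS both STAT3 shRNA libraries also lay below all 3 TMD8 columns.

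A few genes ranked the libraries differently. PPP1R15A was at 66.1 FPKM in the library labelled control, near the 80.7, 100.3 and 67.5 FPKM of TMD8, while both STAT3 shRNA libraries were lower. CARS was at 42.8 and 38.6 FPKM with the STAT3 shRNAs and 148 in the library labelled control, against 265, 241 and 235 in TMD8. WARS was at 64.5 and 55.0 FPKM with the shRNAs and 61.4 in the library labelled control, against 222, 154 and 152 in TMD8. KARS was at 328 and 341 FPKM with the shRNAs and 185 in the library labelled control, against 167, 147 and 185 in TMD8. SLC7A11 was highest in TMD8, at 7.92, 6.52 and 6.42 FPKM. KARS, AARS2, FARSA, FARSB, HARS and RARS were above the TMD8 median in all 3 OCI-LY10 libraries.

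**Figure D3:**
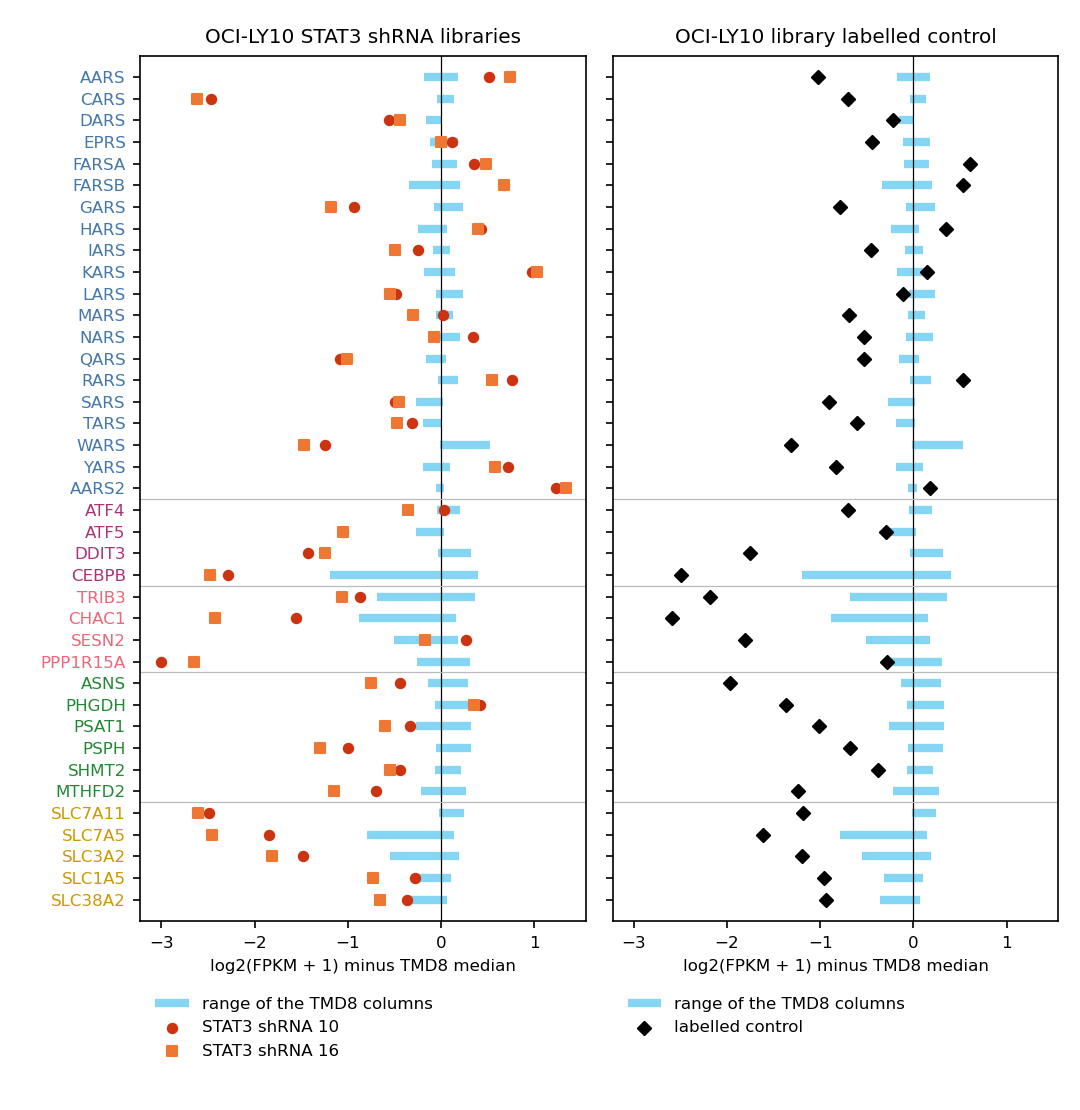
Difference in log2(FPKM + 1) from the TMD8 median (x axis) for 39 genes (rows, without VARS), with the STAT3 shRNA libraries of OCI-LY10 in the left panel and the library labelled control in the right panel. Light blue bars span the 3 TMD8 columns. In the right panel 22 points lie at least 1.5-fold below the whole blue bar and 0 as far above it.

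The 2 STAT3 shRNAs differed little from each other in single genes but mostly in one direction. No member was at least 1.5-fold higher with shRNA 16 than with shRNA 10 (2.55% of genes were), and CHAC1 and SLC7A5 were at least 1.5-fold lower (1.07% of genes were). With 1 library per shRNA there is no test. With a pseudocount of 5 FPKM 0 of the 38 members passed 1.5-fold in either direction (1.33% of genes were higher and 0.806% lower). By any amount, 28 of 38 genes (73.7%) were lower with shRNA 16, where 49% of all genes were. Outside the synthetases it was 16 of 18, with PPP1R15A and DDIT3 the exceptions, and among the synthetases 12 of 20. The median log2 ratio of shRNA 16 to shRNA 10 was -0.09 for 20 synthetases, -0.28 for the 6 enzymes and -0.34 for the 5 transporters. All 6 enzymes and all 5 transporters were lower with shRNA 16, from -0.06 in PHGDH to -0.61 in SLC7A5. SLC7A11, at 0.344 FPKM with shRNA 10 and 0.232 with shRNA 16, is among these 5. It lay under the filter and is not among the 38. Of the enzymes, MTHFD2 stood at 132 FPKM in the shRNA 16 library and 181 in the shRNA 10 library. The regulator ATF4 stood at 274 FPKM in the shRNA 16 library and 359 in the shRNA 10 library. The library with shRNA 16 was also the less deeply sequenced of the 2, and the part of that in these ratios was not tested.

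Within TMD8, some stress outputs, transporters and other genes differed between the value columns. Of 39 genes, 7 spanned at least 1.5-fold over the 3 columns (CEBPB, TRIB3, CHAC1, SESN2, PSAT1, SLC7A5 and SLC3A2), where 11.5% of 10888 genes did. No synthetase did, though WARS and FARSB came near, each with a log2 span of 0.54. CEBPB spanned 3.28-fold, CHAC1 2.16-fold and TRIB3 2.11-fold. SLC7A5 was at 218, 197 and 113 FPKM in value columns 1, 2 and 3, and SLC3A2 at 179, 157 and 107. SESN2 was at 11.03, 9.64 and 6.51 FPKM. Value column 3 held the lowest value of each of these genes except PSAT1, which was lowest in column 2. In all, 20 of 39 genes (51.3%) were lowest in column 3, where 35.5% of genes were. That was 4 of 20 synthetases and 16 of the 19 other genes. With median-of-ratios scaling the count was again 20 of 39, where 40.3% of genes were lowest in column 3. ATF4 itself was highest in column 3, at 403 FPKM, with 351 and 339 in columns 1 and 2. Without column 3, only PSAT1 of the 39 genes spanned 1.5-fold (2.2% of all genes did), and without column 1, 4 of them did (6.93% of all genes did). STAT3 showed another pattern, with column 1 alone high, as given above. No shRNA is assigned to column 3, so these values are not a measure of STAT3 depletion.

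**Figure D4:**
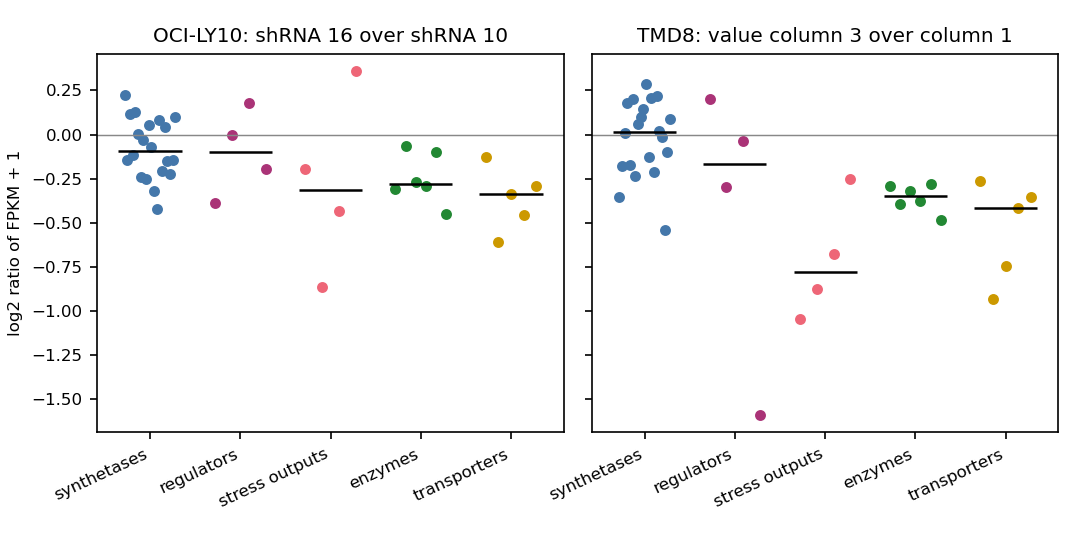
Log2 ratio of FPKM + 1 (y axis) for each gene, by role (x axis), with shRNA 16 over shRNA 10 in OCI-LY10 in the left panel and value column 3 over column 1 in TMD8 in the right panel, VARS left out. Black lines are medians: -0.09 and 0.01 for synthetases, -0.32 and -0.78 for stress outputs, -0.34 and -0.41 for transporters.

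Other genes of the same pathways gave context for OCI-LY10. Of 16 further ATF4-linked genes tested, 6 were higher and 3 lower with STAT3 shRNA, where 20.3% of all tested genes were higher and 17.4% lower. PYCR1, which makes proline, was at 189 and 171 FPKM with shRNA 10 and 16, against 14.0 in the library labelled control (log2 change 3.59, SE 0.11, adjusted p = 0.00733). ALDH1L2, of mitochondrial folate metabolism, was at 10.8 and 9.21 FPKM against 0.514 (log2 change 2.85, adjusted p = 0.0104). The transcription factors ATF3 and JDP2 were lower, with log2 changes of -2.64 and -1.80. In TMD8, PYCR1 was at 43.9, 40.9 and 36.6 FPKM and ATF3 at 32.3, 37.2 and 30.6.

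Of 14 genes of the eIF2 kinases and eIF2 machinery, 3 were higher and 1 lower. The shares over all tested genes, for this list and those after it, were 20.3% higher and 17.4% lower. IMPACT, an inhibitor of the kinase GCN2, was at 5.71 and 6.57 FPKM with the shRNAs, against 0.00870 in the library labelled control, and listed at 0 in all 3 TMD8 columns. EIF2AK1, the heme-regulated eIF2 kinase, had a log2 change of 0.62 (adjusted p = 0.0323), and EIF2B2, an eIF2B subunit, of -1.03 (adjusted p = 0.0314). Of 15 other mitochondrial synthetases tested, RARS2 was higher and 3 were lower, among them FARS2, with a log2 change of -1.12. EEF1E1, a scaffold of the multisynthetase complex, was lower (log2 change -0.96, adjusted p = 0.0226), and AIMP1 and AIMP2 were not called. Of 10 other amino acid transporters, 2 were higher, SLC7A6 and SLC36A1, with log2 changes of 1.41 and 1.22. Of 11 one-carbon and glutamine enzymes tested, 2 were higher, among them SHMT1, and 3 lower, among them TYMS and GLUD1, with log2 changes of -0.93 and -0.69.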

How the data were processed

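The RNA-seq values are FPKM, which the authors deposited with 1 value per gene and library in 2 tables of 25277 rows, 1 per cell line. TopHat, Bowtie2 and the build hg19 are named per the submitters' processing notes, while the sources used here do not name the program behind FPKM, its annotation or its use of strand. Per the labels, the RNA libraries come from a TruSeq kit. The OCI-LY10 columns carry names that fit 1 sample each. The 3 unnamed columns of the other table were tied to the 3 TMD8 RNA-seq samples as a group, because those samples' labels name that table, and they enter no test.

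Rows of 2 repeated symbols were summed. The 11162 genes that averaged 1 FPKM or more in OCI-LY10 entered a two-sided test of log2(FPKM + 1) by limma 3.58.1 (R 4.3.3, with a mean-variance trend). P-values had Benjamini-Hochberg adjustment over all tested genes and a threshold of 0.05. The fit had 1 residual and 1.64 prior degrees of freedom. It was first tried on made-up data with known changes. Fold changes on this scale understate the change of low genes. Counts at 1.5-fold use FPKM + 1 and no test. Relative depth came from the commonest ratio of values under 0.1 FPKM, and absolute depth is unknown. Nothing in the labels says that libraries came from separate cultures.

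The genes and lists were chosen with earlier results of these data known. Named genes are the 40 members, STAT3 and, per pathway list, at most the 2 highest and 2 lowest called genes. Of these, 2 are not reported here. IMPACT in TMD8, VARS2, AIMP1 and AIMP2 were named after their values were seen. Current symbols and promoter windows are from RefSeq (GRCh38.p14).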

Additional observations from a re-analysis of the deposited data

How the results depend on the processing

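Under the 7 other settings of the limma fit, between 4 and 10 members were called higher and between 3 and 5 lower. The main fit called 8 of 38 members higher and 4 lower, and 2263 and 1943 of 11162 genes. With small RNA genes left out these were 10 and 5 of 38 members, and 2860 and 2321 of 10857 genes. Without the filter on low values they were 4 and 3 of 39 members, and 1299 and 2101 of 18098 genes. The cause of these shifts was not tested. With 1 shRNA library left out, members at least 1.5-fold higher numbered 8 to 14 (23.5% of all genes) and lower 3 to 6 (19.5% to 20.1% of all genes). With quantile normalization 2 uncalled changes turned sign, HARS (-0.0248) and IARS (-0.0039), and the cause was not tested. For shRNA 16 against shRNA 10, the count of lower members was 0 with a pseudocount of 5 FPKM (0.806% of all genes) and 0 at 2-fold (0.69% of all genes). Members spanning the TMD8 columns numbered 3 at 2-fold (2.98% of all genes then), and 1 to 6 with 1 column left out (2.2% to 8.57% of all genes). At 2-fold, 1 member lay above (9.44% of all genes) and 7 below (12.5% of all genes) all TMD8 columns in both shRNA libraries, and 10 below in the library labelled control (2.35% of all genes). At 1.5-fold, 22 members were below in that library, a count of 19 with median-of-ratios scaling, where 8.12% of genes passed. With 1 column left out it was 22 to 23 (10.1% to 14.7% of all genes), a choice made after seeing the data. Members above all columns in that library numbered 0 to 1 with 1 column left out (7.23% to 11.4% of all genes). A fit with 1 shRNA library left out has no residual degrees of freedom and gave no calls. Replicate cultures of a condition and absolute depth are not in hand.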

Other observations

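Genes whose products pair, and the relatives ATF5 and ATF4, were compared within each library, as ratios of FPKM. The transporter chain SLC7A5 stood at 0.968 and 0.796 times its partner SLC3A2 with shRNA 10 and 16, against 0.937 in the library labelled control, and at 1.21, 1.25 and 1.06 times in TMD8 value columns 1, 2 and 3. SLC7A11, which needs the same partner, reached 0.0602 times SLC3A2 at most. FARSA and FARSB, the subunits of phenylalanyl-tRNA synthetase, were at a ratio of 1.18 and 1.29 with the shRNAs, against 1.55 in the library labelled control, and 1.67, 1.76 and 1.28 in TMD8. ATF5 was 1.79 and 2.33 times ATF4 with the shRNAs, against 5.04 times in the library labelled control, and 3.86, 3.91 and 2.73 times in TMD8.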
